A study of Mus musculus with 12 samples.

Results

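The genes described here encode proteins of the mitochondrial ribosome. A gene was included where a probe set of the array carried exactly 1 symbol that began with Mrpl or Mrps followed by a number. The rule found 71 genes, 43 of the large subunit (Mrpl) and 28 of the small subunit (Mrps), among 22180 genes with a probe set of 1 symbol. They had 80 such probe sets. For the 9 genes with more than 1, the one with the highest mean signal on the 12 arrays was used. Another 7 genes of this name (Mrpl30, Mrpl33, Mrpl41, Mrpl43, Mrpl44, Mrpl53 and Mrps6) were matched only by probe sets that carried several symbols and were not analysed here.

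Mitochondria keep a small genome of their own, and a dedicated ribosome in the matrix translates its messenger RNAs into core subunits of the respiratory chain and the ATP synthase. Every protein of that ribosome is encoded in the nucleus, made in the cytosol and imported, whereas its ribosomal RNAs come from the mitochondrial genome. The large subunit joins amino acids and holds the exit tunnel beside the inner membrane, and the small subunit binds the messenger RNA and reads its codons. In the lung, alveolar type 2 cells are rich in mitochondria.

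RNA levels came from Affymetrix arrays, 12 in number, of MLE12, a mouse lung epithelial cell line that was immortalised with the SV40 large T antigen. All cells were infected for 12 hours with lentivirus that carried an shRNA in the pLKO.1 vector, cultured for another 65 hours and lysed, and 100 ng of RNA was labelled. The 4 groups of 3 arrays were NANCI shRNA, which targets a long noncoding RNA, with scrambled shRNA as its control, and LL34 shRNA, again with scrambled shRNA as a control of its own. Each targeting group was compared with its own scrambled group, which asks what changes when the targeted RNA is reduced. All groups were thus infected cells of 1 line, and none was uninfected. The labels call the 3 arrays of a group biological replicates without saying that they came from separate infections, and p-values here rest on array-to-array spread alone.

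Values are deposited log2 signals, so a change of 1 is a doubling, and changes below are the shRNA mean less the scrambled mean, each with its standard error (SE). A gene was called, and is said to have risen or fallen, where limma's p-value, adjusted by the Benjamini-Hochberg method over all 41345 probe sets, was under 0.05. Sfta3-ps (which has Nanci among its synonyms) fell by 2.91 ± 0.121 (SE, limma adjusted p = 1.72e-07) with the NANCI shRNA and by 0.67 ± 0.121 (limma adjusted p = 0.00284) with the LL34 shRNA. No table used here names LL34, so its own level was not analysed here. The median signal of an array was 6.84 to 6.88 in the NANCI set, and in the LL34 set it was lower, at 6.54 to 6.61. Replicate 3 of the LL34 scrambled group stood apart, with an upper quartile of 8.50 against 8.65 to 8.71 on the other arrays of its set and a mean correlation of 0.988 with its group. Of 9 lung epithelial markers, Nkx2-1, Cdh1, Krt8, Krt19, Sftpb, Sftpc and Foxa2 were bright, whereas Epcam and Krt18 lay just below the median of all probe sets. Of 6 mesenchymal markers, 4 lay at or above that median: Dcn at the 99.2nd percentile, Col1a1 at the 70th, and Col1a2 and Col3a1 at 52.7 and 53.4. The other two, Pdgfra and Lum, were lower, at 33.4 and 13.5. Of 4 endothelial markers 1 lay above the median (Tek, at 61, the others from 36.5), and of 4 leukocyte markers 1 did (Cd68, at 74.8, with Ptprc lowest at 22).

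The mitochondrial ribosome was well represented in these cells. All 43 large subunit genes and 27 of the 28 small subunit genes had a mean signal at or above the median of all probe sets. The exception was Mrps36, a gene whose product is known as a part of the oxoglutarate dehydrogenase complex despite its name. Genes this bright were called more often than dim ones, so 2 backgrounds are given beside the first counts: all 22180 genes, and the 12528 genes at or above that median. The second was chosen after the data were seen.

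Cells given the NANCI shRNA had more RNA for many mitochondrial ribosomal proteins. In the large subunit 18 of 43 genes rose, 7 fell and 18 were not called. In the small subunit 14 of 28 rose, 3 fell and 11 were not called. Rises were called in 13.2% of all genes and in 22% of the brighter genes, against 41.9% of the large subunit and 14 of the 28 small subunit genes. Falls were called in 13.6% of all genes and 22.7% of the brighter genes, against 16.3% and 10.7%. Calls in either direction covered 26.8% of all genes and 44.7% of the brighter genes, against 59.2% of the members. The median change was 0.14 over the large subunit and 0.26 over the small, against 0.0042 over all genes. On the separate arrays of the NANCI shRNA, the large subunit's median stood 0.24, 0.19 and 0.061 above the scrambled mean and the small subunit's 0.36, 0.28 and 0.17, so replicate 3 showed the least shift. In 49 of the 71 genes (69.0%) the shRNA arrays did not overlap the scrambled arrays, which held for 40.5% of all genes and 61.7% of the brighter genes. In all, 51 of 71 changes were above 0. Cell type markers also moved with the NANCI shRNA. Among the 9 epithelial markers Cdh1 (change −1.56) and Krt8 (−0.43) fell, Nkx2-1 fell by 1.00 and Foxa2 rose (0.29), at limma adjusted p of 6.92e-07, 0.00403, 4.95e-06 and 0.0102. Of the other lists, the mesenchymal Dcn fell (−0.91, limma adjusted p = 8.05e-06), as did the endothelial Tek (−1.05, limma adjusted p = 0.00141), and the leukocyte gene Cd68 rose by 0.88 (limma adjusted p = 0.000145). The mean log2 signal of the epithelial list was 9.58 to 9.69 on the scrambled arrays and 9.24 to 9.37 on the shRNA arrays. That of the mesenchymal list was 7.65 to 7.82 and 7.5 to 7.57, of the endothelial list 6.89 to 6.97 and 6.62 to 6.7, and of the leukocyte list 6.39 to 6.55 and 6.58 to 6.73. Their part in the result was not tested.

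**Figure D1:**
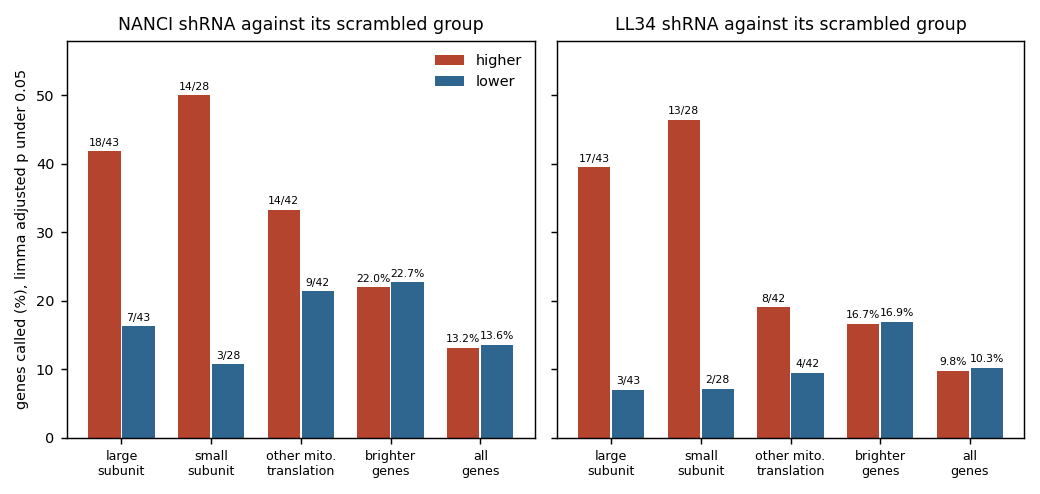
Share of genes called higher (red) and lower (blue) at a limma adjusted p under 0.05, in percent on the vertical axis, for the large and small subunit, other mitochondrial translation genes, genes at or above the median level ("brighter genes") and all genes. Numbers over the bars of the first 3 lists are genes called of genes measured; with either shRNA the red bars of both subunits stand above those of the brighter genes.

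The largest rises after the NANCI shRNA were in the small subunit. Mrps31 (probe set 17499922), a protein found only in mitochondrial ribosomes, read 9.39, 9.39 and 9.37 on the scrambled arrays and 10.41, 10.36 and 10.39 on the shRNA arrays. The groups lay far apart, and the rise was 1.00 ± 0.0598 (SE, n = 3 against 3, limma adjusted p = 1.18e-06), which is 200% of the scrambled level. Mrps22 (probe set 17529966), another mitochondria-specific protein, in which inherited defects are known to lower oxidative phosphorylation, read 9.37, 9.17 and 9.36 against 10.28, 10.12 and 10.22. Its rise of 0.91 ± 0.0673 (limma adjusted p = 4.67e-06) also left a wide gap between the groups. Mrps18c, a counterpart of bacterial S18, rose by 0.70 ± 0.132 (limma adjusted p = 0.00264), with 9.43, 9.41 and 9.02 on the shRNA arrays and none of the scrambled arrays above 8.72. Mrps9, a protein of the head of the subunit, rose by 0.68 ± 0.0647 (limma adjusted p = 2.43e-05). Mrps30 rose by 0.60 ± 0.0941 (limma adjusted p = 0.000812). Structures place Mrps30 and Mrps18a in the large subunit despite their names. With those genes moved, 19 of 45 large subunit genes rose and 7 fell, and 13 of 26 small subunit genes rose and 3 fell.

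In the large subunit, Mrpl46 (probe set 17492280), a mitochondria-specific protein of the central protuberance, the knob above the cleft between the subunits, rose. It read 7.81, 7.75 and 7.86 with scrambled shRNA and 8.71, 8.45 and 8.57 with the NANCI shRNA, a rise of 0.77 ± 0.106 (limma adjusted p = 0.000308). The 2 groups were separated by more than either one's own spread. Mrpl21, a counterpart of bacterial L21, rose by 0.57 ± 0.0762 (limma adjusted p = 0.000248). Mrpl58, a peptidyl-tRNA hydrolase built into the ribosome, rose by 0.54 ± 0.0766 (limma adjusted p = 0.000401). Mrpl18 rose by 0.52 ± 0.0766 (limma adjusted p = 0.000539), and its protein also lies in the protuberance, as does that of Mrpl38, which fell (change −0.36). Mrpl32, whose maturation by the m-AAA protease is a known step of ribosome assembly, had a larger mean rise, 0.88, but with an SE of 0.267. It read 8.59, 8.36 and 8.81 on the scrambled arrays and 9.53, 9.46 and 9.42 on the shRNA arrays. Its limma adjusted p of 0.0382 passed the threshold, but leaving out any 1 of the 6 arrays of the NANCI set took it to between 0.0505 and 0.123. The pooled spread of Mrpl32 included replicate 3 of the LL34 scrambled group, which read 7.57 beside 8.76 and 8.73.

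Other members rose by smaller amounts. Of the 19 genes called higher with the NANCI shRNA and not called with the LL34 shRNA, 10 were in the large subunit (Mrpl1, Mrpl4, Mrpl16, Mrpl18, Mrpl21, Mrpl22, Mrpl32, Mrpl39, Mrpl40 and Mrpl51) and 9 in the small (Mrps7, Mrps9, Mrps10, Mrps11, Mrps12, Mrps18c, Mrps22, Mrps33 and Mrps35). Mrps7, which helps to organise the head of the small subunit, rose by 0.40 (limma adjusted p = 0.000379). Mrps12, the decoding-centre protein, rose by 0.45 (limma adjusted p = 0.0143), from 7.83, 8.16 and 7.94 to 8.60, 8.34 and 8.32. Those readings did not overlap, but the gap between the nearest arrays was small. The difference between the changes was itself called for 10 of the 19: Mrpl4, Mrpl18, Mrpl21, Mrpl51, Mrps7, Mrps9, Mrps18c, Mrps22, Mrps33 and Mrps35. It was called in 24.4% of all genes and 40.7% of the brighter genes. Genes chosen for a call with 1 shRNA alone are more prone to a called difference. How often it was called over all genes with such calls was not computed.

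A smaller number of members fell after the NANCI shRNA. Mrpl10 (probe set 17255719), which forms the base of the stalk where translation factors bind, was one of the brighter members. It read 12.13, 12.05 and 12.19 on the scrambled arrays and 11.23, 11.35 and 11.13 on the shRNA arrays. It fell by 0.89 ± 0.0766 (limma adjusted p = 1.25e-05), to 54.1% of the scrambled level. On its second, dimmer probe set Mrpl10 changed by −0.24 and was not called (limma adjusted p = 0.0573). Mrpl11, its partner in the stalk base, fell by 0.28 ± 0.0641 (limma adjusted p = 0.00867), whereas Mrpl12, the mobile part of the stalk, was not called (0.07, 95% interval −0.08 to 0.21). Mrpl45 (probe set 17255762), which ties the ribosome to the inner membrane, read 10.10, 10.16 and 10.21 against 9.56, 9.65 and 9.49. Its fall was 0.59 ± 0.0762 on the log2 scale (change −0.59, limma adjusted p = 0.000204) and the groups did not overlap. Mrps15, a counterpart of a bacterial protein that binds early to the small ribosomal RNA, had a change of −0.55 (limma adjusted p = 8.12e-05), from 11.13, 11.09 and 11.19 to 10.61, 10.68 and 10.48. Mrps27, a pentatricopeptide repeat protein, changed by −0.43 (limma adjusted p = 0.009), and its shRNA arrays, at 9.21, 9.06 and 8.80, lay below all scrambled arrays. Mrps17 changed by −0.41, Mrpl55 by −0.38 and Mrpl38 by −0.36, with Mrpl17 and Mrpl47 below them in size.

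To show what lies upstream of members with large changes, 150 bases before the RefSeq start are given, 5′ to 3′ on the gene's strand (build GRCm38.p6). Capitals mark matches to 3 motifs with known roles in genes for mitochondrial proteins, searched on both strands: CCGGAAG, bound by ETS factors such as GABP, GCGCA followed after any 1 base by GCGC, bound by NRF1, and AAGATGGCG, bound by YY1, and also to the E-box CACGTG. Mrps31 at chr8:22411190-22411339, plus strand, and Mrps22 at chr9:98601680-98601829, minus strand, rose most. Mrpl10 at chr11:97041432-97041581 and Mrpl45 at chr11:97315566-97315715, both plus strand, fell most. The last line is the 41 bases at chr7:78783090-78783130, plus strand, between the starts of Mrps11 and Mrpl46, which face away from each other and both rose, by 0.27 and 0.77.
Mrps31: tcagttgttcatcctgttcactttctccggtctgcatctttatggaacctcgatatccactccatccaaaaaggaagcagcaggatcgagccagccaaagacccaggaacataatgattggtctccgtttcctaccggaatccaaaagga
Mrps22: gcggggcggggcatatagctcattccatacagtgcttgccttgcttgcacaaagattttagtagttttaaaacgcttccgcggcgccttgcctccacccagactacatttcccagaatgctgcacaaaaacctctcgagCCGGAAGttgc
Mrpl10: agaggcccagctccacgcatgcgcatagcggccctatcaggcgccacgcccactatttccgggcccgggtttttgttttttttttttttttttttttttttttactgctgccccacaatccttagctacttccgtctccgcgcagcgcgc
Mrpl45: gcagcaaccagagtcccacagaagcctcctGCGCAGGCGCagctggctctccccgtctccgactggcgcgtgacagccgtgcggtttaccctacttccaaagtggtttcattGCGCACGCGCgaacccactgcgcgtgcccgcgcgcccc
Mrps11 to Mrpl46: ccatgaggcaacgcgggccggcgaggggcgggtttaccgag

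The stretch before Mrps22 held an ETS match close to the start, and that before Mrpl45 held 2 NRF1 matches. No match lay in the stretches of Mrps31 and Mrpl10 or between Mrps11 and Mrpl46, which says only that these letters are not in those windows. The gap of the pair is shorter than the other stretches, and the longer RefSeq window of Mrps11 held a YY1 match outside it. Over the whole RefSeq windows of 300 bases around the start, available for 62 of the 71 members, the ETS match occurred in 23 (37.1%), against 9.93% of 27025 genes. The NRF1 match occurred in 11 (17.7%) against 5.19%, and the YY1 match in 8 (12.9%) against 1.64%. An E-box occurred in 5 (8.06%) against 8.09%, and CACTTGA, a site for NKX2-1, in 0 of 62 against 3.6%. Among members that rose after the NANCI shRNA, 12 of 29 with a window had the ETS match, and among those that fell 2 of 9. After the LL34 shRNA it was 8 of 27 that rose and 1 of 5 that fell. The NRF1 match occurred in 4 of 29 and 2 of 9, and in 4 of 27 and 0 of 5. The YY1 match occurred in 3 of 29 and 1 of 9, and in 3 of 27 and 1 of 5. These classes are small, and differences between them were not tested. A match is a string of letters and was not tested as a binding site.

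**Figure D2:**
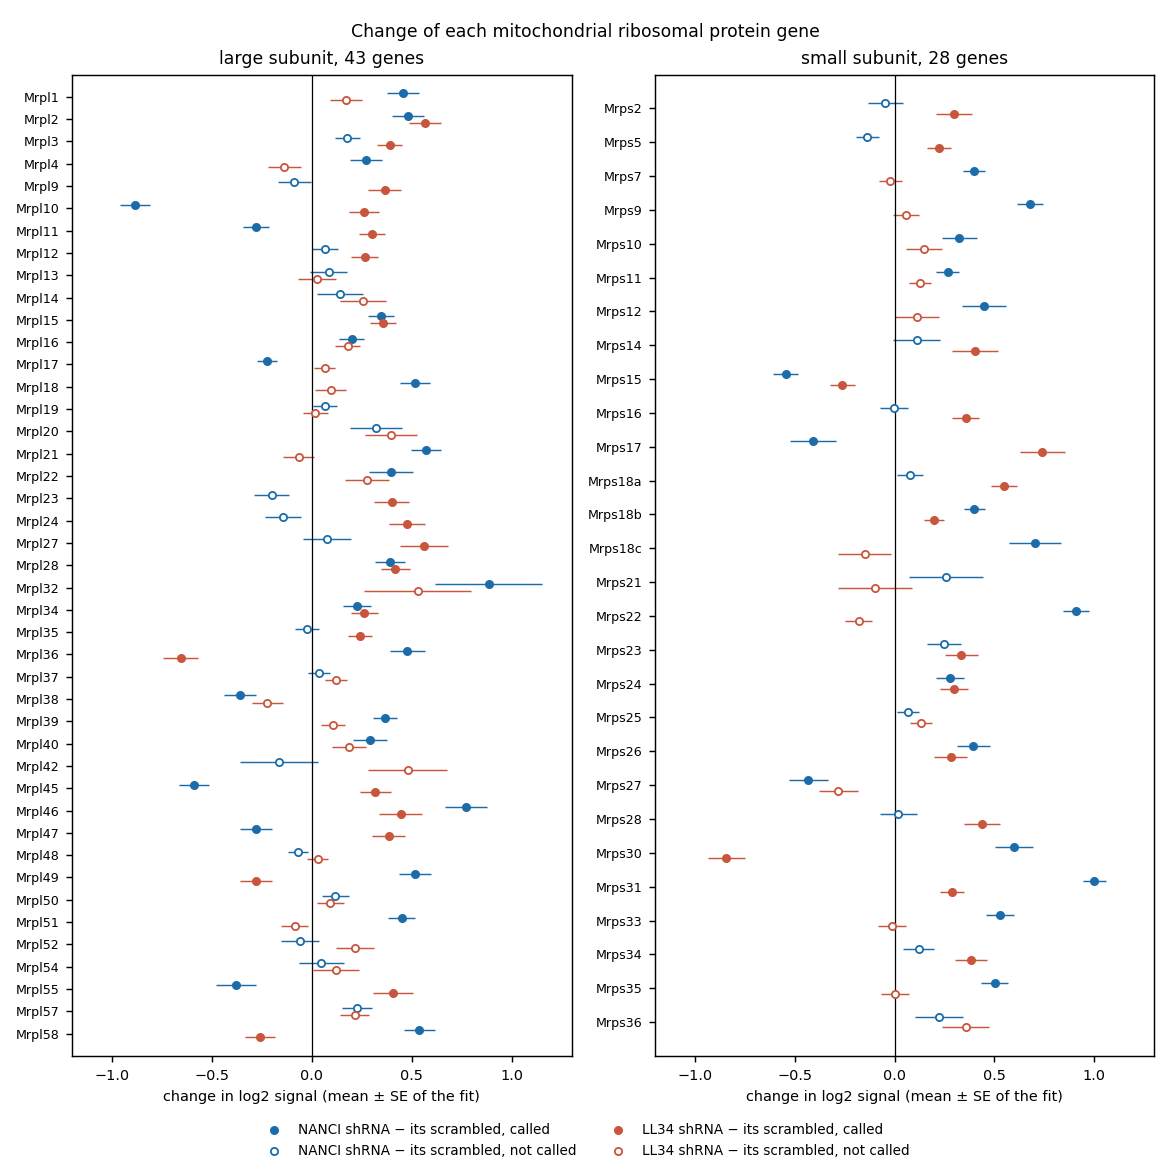
Change of each mitochondrial ribosomal protein gene in log2 signal (horizontal axis, mean ± SE of the fit, 3 arrays against 3) after the NANCI shRNA (blue) and the LL34 shRNA (red), large subunit on the left and small subunit on the right. Filled points were called and open points were not; most filled points lie right of 0, and the widest spread between the colours is in Mrps30, Mrps17, Mrpl10 and Mrpl36.

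Cells given the LL34 shRNA also had more RNA for many of these proteins. In the large subunit 17 of 43 genes rose, 3 fell and 23 were not called. In the small subunit 13 of 28 rose, 2 fell and 13 were not called. Rises were called in 9.77% of all genes and 16.7% of the brighter genes, against 39.5% and 46.4% of the large and small subunit. Falls were called in 10.3% of all genes and 16.9% of the brighter genes, against 6.98% and 7.14%. Calls in either direction covered 20% of all genes and 33.6% of the brighter genes, against 49.3% of the members. The median change was 0.24 over the large and 0.17 over the small subunit, against −0.02 over all genes, and 56 of 71 changes were above 0. The LL34 shRNA arrays stood 0.25, 0.17 and 0.26 above the scrambled mean by the large subunit's median and 0.19, 0.19 and 0.18 by the small subunit's. Groups did not overlap in 52 of 71 genes (73.2%), against 35.3% of all genes and 53.7% of the brighter genes. Of the epithelial markers, Krt19 (change −1.15), Krt8 (−0.67), Foxa2 (−0.39), Sftpc (−0.62) and Nkx2-1 (−0.27) fell with the LL34 shRNA, at limma adjusted p of 5.95e-06, 0.000344, 0.0027, 0.0392 and 0.0327. Sftpb (0.62) and Epcam (0.33) rose, at 0.00504 and 0.0324. The endothelial Tek fell (−1.26, limma adjusted p = 0.000715), and no mesenchymal or leukocyte marker was called. The mean log2 signal on the scrambled and shRNA arrays was 9.46 to 9.71 and 9.26 to 9.34 for the epithelial list, 7.35 to 7.57 and 7.39 to 7.42 for the mesenchymal, 6.43 to 6.5 and 6.11 to 6.15 for the endothelial, and 6.33 to 6.41 and 6.08 to 6.23 for the leukocyte list. Their part in the result was not tested.

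Many of these changes were small, and the counts moved with single arrays. The large subunit had 11 rises without LL34 shRNA replicate 1, 9 without replicate 3 and 11 without scrambled replicate 2. Over all genes rises also went down, from 9.77% to 6.61%, 6.59% and 8.16% in those settings. The small subunit had 7, 8 and 7 rises without LL34 shRNA replicates 1, 2 and 3 and 7 without scrambled replicate 3, the array that stood apart. Rises over all genes were then 6.61%, 8.11%, 6.59% and 7.9%. Falls in the large subunit went from 3 to 1 without any 1 of the LL34 shRNA arrays or without scrambled replicate 1 or 2, and those in the small subunit from 2 to 1 without LL34 shRNA replicate 1 or 3. Falls over all genes, 10.3% with all arrays, were 8% to 9.04% in these settings. Quantile normalization of all arrays together gave 8 rises and 4 falls in the small subunit in place of 13 and 2, and centring each array on its median gave 7 and 2. Over all genes rises and falls were 8.35% and 12.7% after quantile normalization and 7.26% and 11.1% after centring.

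The largest rise after the LL34 shRNA was in Mrps17 (probe set 17442898), a counterpart of bacterial S17, which binds ribosomal RNA. It read 8.88, 8.76 and 8.61 on the scrambled arrays and 9.53, 9.31 and 9.63 on the shRNA arrays. The rise of 0.74 ± 0.113 (SE, limma adjusted p = 0.00105) took it to 167% of the scrambled level with no overlap. Mrpl2, a protein near the peptidyl transferase centre, read 8.85, 8.78 and 8.81 against 9.35, 9.33 and 9.45, a rise of 0.57 ± 0.0802 (limma adjusted p = 0.000654). Mrpl27 read 7.63, 7.31 and 7.57 against 8.10, 7.93 and 8.16, a rise of 0.56 ± 0.121 (limma adjusted p = 0.00845), and in bacteria its counterpart reaches into the same centre. Mrps18a read 9.93, 9.94 and 10.02 against 10.48, 10.50 and 10.55, a rise of 0.55 ± 0.0641 (limma adjusted p = 0.000201). In all 4 of these genes every shRNA array lay above every scrambled array.

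Of the other genes that rose after the LL34 shRNA, several had smaller changes. Mrpl24, a protein near the tunnel exit, rose by 0.48 (limma adjusted p = 0.00384) and Mrpl23, at the exit itself, by 0.40 (limma adjusted p = 0.00895). Mrpl46 rose by 0.44 (limma adjusted p = 0.0147), a call that was lost without LL34 shRNA replicate 1 or 3 or scrambled replicate 2 (0.067, 0.0591 and 0.053). Mrpl28 rose by 0.42 (limma adjusted p = 0.00268). In the small subunit Mrps28 rose by 0.44 (limma adjusted p = 0.00721), Mrps14 by 0.40 (limma adjusted p = 0.0376) and Mrps34 by 0.38 (limma adjusted p = 0.00646). Mrps28 and Mrps34 missed the threshold after joint quantile normalization (0.0704 and 0.0566), and Mrps14 without LL34 shRNA replicate 1 or 3 or scrambled replicate 1 or 3 (0.0752 to 0.143). All 3 stalk genes rose after the LL34 shRNA, Mrpl11 by 0.30 (limma adjusted p = 0.00775), Mrpl12 by 0.26 (limma adjusted p = 0.018) and Mrpl10 by 0.26 (limma adjusted p = 0.0401). The Mrpl12 and Mrpl10 calls did not hold under all alternatives, and their second probe sets changed by −0.03 and −0.19.

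Of the 15 genes called higher with the LL34 shRNA and not called with the NANCI shRNA, 7 were in the large subunit (Mrpl3, Mrpl9, Mrpl12, Mrpl23, Mrpl24, Mrpl27 and Mrpl35) and 8 in the small (Mrps2, Mrps5, Mrps14, Mrps16, Mrps18a, Mrps23, Mrps28 and Mrps34). The difference between the changes was called for 7 of them: Mrpl9, Mrpl23, Mrpl24, Mrps5, Mrps16, Mrps18a and Mrps28. Mrpl27 was not among these, with a difference of −0.48 (limma adjusted p = 0.0771). A called difference occurred in 24.4% of all genes and 40.7% of the brighter genes. Here too the choice by calls favours a called difference, and genes with such calls in general were not counted.

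Falls after the LL34 shRNA were few and large in 2 genes. Mrps30 (probe set 17296476), also known as a programmed cell death protein, read 9.36, 9.28 and 9.34 on the scrambled arrays and 8.62, 8.34 and 8.49 on the shRNA arrays. It fell by 0.84 ± 0.0941 (limma adjusted p = 0.00015), to 55.8% of the scrambled level. Mrpl36 (probe set 17288463), a very small protein of the large subunit, read 6.92, 7.01 and 6.99 against 6.23, 6.38 and 6.34 and fell by 0.66 ± 0.0874 (limma adjusted p = 0.000451). Both were far outside the spread of their scrambled arrays, and both calls held under all 15 alternatives run for this comparison. Smaller falls were called in Mrpl49 (change −0.28, limma adjusted p = 0.0333), Mrpl58 (−0.26, limma adjusted p = 0.0409) and Mrps15 (−0.26, limma adjusted p = 0.0139). The Mrpl49 and Mrpl58 calls were each lost on leaving out any 1 of 5 arrays of the set (0.0607 to 0.123), scrambled replicate 3 being the exception, and the Mrps15 call without LL34 shRNA replicate 1 or 3 (0.0506 and 0.0582).

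The same stretch of 150 bases before the start is shown for 4 members with large changes after the LL34 shRNA, taken from those with 1 RefSeq window. Mrps17 at chr5:129715347-129715496 and Mrpl27 at chr11:94653641-94653790, both plus strand, rose, and Mrps30 at chr13:118387253-118387402, minus strand, and Mrpl36 at chr13:73330859-73331008, plus strand, fell. Capitals mark matches as above. Mrpl27 held an ETS match, Mrpl36 held an E-box and a YY1 match on the opposite strand, and the stretches of Mrps17 and Mrps30 held none.
Mrps17: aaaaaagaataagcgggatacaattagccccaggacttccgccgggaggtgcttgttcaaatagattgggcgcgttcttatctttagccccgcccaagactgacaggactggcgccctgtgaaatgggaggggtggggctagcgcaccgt
Mrpl27: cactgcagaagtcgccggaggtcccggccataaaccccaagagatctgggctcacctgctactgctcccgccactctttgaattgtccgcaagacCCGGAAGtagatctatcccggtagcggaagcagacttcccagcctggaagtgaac
Mrps30: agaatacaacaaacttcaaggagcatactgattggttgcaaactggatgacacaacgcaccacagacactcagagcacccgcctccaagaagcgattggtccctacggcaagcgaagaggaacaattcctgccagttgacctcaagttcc
Mrpl36: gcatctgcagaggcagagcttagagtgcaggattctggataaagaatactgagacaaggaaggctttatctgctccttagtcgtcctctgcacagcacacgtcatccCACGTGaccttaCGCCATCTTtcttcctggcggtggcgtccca

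The 2 comparisons share no arrays in their group means. The fit gave each gene 1 estimate of the spread from all 12 arrays, so the calls set side by side here are not independent. In all, 9 members were called higher with both shRNAs: Mrpl2, Mrpl15, Mrpl28, Mrpl34, Mrpl46, Mrps18b, Mrps24, Mrps26 and Mrps31. That is 12.7% of the 71, against 2.07% of all genes and 3.62% of the brighter genes. Rises with the NANCI and the LL34 shRNA taken singly were already more frequent in the members (45.1% and 42.3%) than in all genes (13.2% and 9.77%). High single shares alone raise the number of shared calls. Whether rises were shared more or less often than those shares give was not tested. With the pooled scrambled control left aside, 4 kept both calls under the other alternatives: Mrpl2, Mrpl15, Mrpl28 and Mrps31. The other 5 lost the LL34 call under at least 1 of them, and Mrpl34 and Mrps24 lost the NANCI call too. With the pooled control included, Mrps31 alone kept both. Mrps31 was higher in both but differed in size (1.00 against 0.29, difference 0.71, limma adjusted p = 0.000147). For Mrpl15, which rose by 0.35 and 0.36, the difference was −0.01 (limma adjusted p = 0.964). Mrps15 was the 1 member called lower with both, against 3.21% of all genes, and 14 members were called with neither.

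The size of the difference itself was tested as its own contrast, NANCI change minus LL34 change. It was called in 16 large subunit genes (7 with the NANCI change higher, 9 lower) and 14 small subunit genes (8 and 6). That is 42.3% of the members, against 24.4% of all genes and 40.7% of the brighter genes, so the share lies near that of the brighter genes. That background was not matched to the levels of the members. The NANCI change was the higher in 12% of all genes and 19.9% of the brighter genes, and the lower in 12.3% and 20.8%, against 21.1% of the members each way. In 10 members (14.1%) the calls had opposite signs and the difference was called, against 5.52% of all genes and 9.62% of the brighter genes.

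In 4 of these 10 the NANCI shRNA raised the signal and the LL34 shRNA lowered it. Mrps30 read 9.65, 9.47 and 9.70 with the NANCI scrambled shRNA and 10.38, 10.13 and 10.11 with the NANCI shRNA, opposite to its fall in the LL34 set. The difference was 1.44 (limma adjusted p = 2.72e-05), the largest over all members. Mrpl36 rose from 7.19, 7.29 and 7.21 to 7.91, 7.69 and 7.53 in the NANCI set, and its difference was 1.13 (limma adjusted p = 8.16e-05). Mrpl58 and Mrpl49, which rose by 0.54 and 0.52 with the NANCI shRNA, had differences of 0.80 (limma adjusted p = 0.000362) and 0.79 (limma adjusted p = 0.000447).

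In the other 6 the NANCI shRNA lowered the signal and the LL34 shRNA raised it. Mrpl10 had a difference of −1.15 (limma adjusted p = 3.16e-05) on its main probe set and of −0.05 (limma adjusted p = 0.827) on its other. In the LL34 set the main probe set read 11.81, 11.78 and 11.63 with scrambled shRNA and 12.05, 11.91 and 12.04 with the targeting shRNA. The call of this smaller arm was lost without LL34 shRNA replicate 1 or 3 or scrambled replicate 2 or 3 (0.0683 to 0.136). Mrps17, also at −1.15 (limma adjusted p = 0.000421), went from 9.48, 9.50 and 9.76 to 9.20, 9.30 and 9.03 in the NANCI set. Its NANCI call was lost without NANCI shRNA replicate 1 or 3 or scrambled replicate 3 (0.06, 0.097 and 0.101). Mrpl45 had a difference of −0.91 (limma adjusted p = 0.000147), with an LL34 call that was lost without LL34 shRNA replicate 1 or 3 (0.0595 and 0.0535). The last 3 were Mrpl55, a counterpart of bacterial L31 (−0.79, limma adjusted p = 0.00211), Mrpl47, at the tunnel exit (−0.66, limma adjusted p = 0.00171), and Mrpl11 (−0.58, limma adjusted p = 0.000871). Mrpl55 lost its NANCI call without NANCI shRNA replicate 3 or scrambled replicate 2 (0.0739 and 0.0686) and its LL34 call without LL34 shRNA replicate 1 or 3 or scrambled replicate 1 or 2 (0.0543 to 0.0596). Mrpl47 lost its NANCI call without NANCI shRNA replicate 1 or 2 or scrambled replicate 1 or 3 (0.0692 to 0.116).

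**Figure D3:**
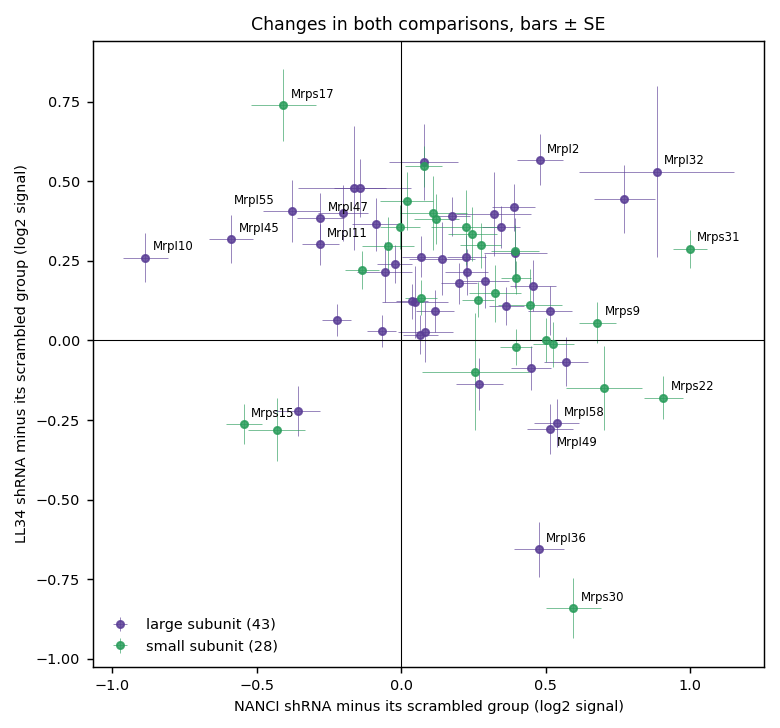
Change after the NANCI shRNA (horizontal axis) against change after the LL34 shRNA (vertical axis), both in log2 signal with bars of ± SE, for 43 large subunit genes (purple) and 28 small subunit genes (green). Mrps30 and Mrpl36 lie in the lower right, Mrps17, Mrpl10 and Mrpl45 in the upper left, and the points show no common line.

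Across the 71 genes the changes had a Pearson correlation of −0.22 and a Spearman correlation of −0.274, against −0.009 and −0.001 over all genes. Within the large subunit the values were −0.167 and −0.169, and within the small −0.261 and −0.399. These are descriptions across genes, which share arrays and are not independent replicates.

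Large differences also occurred in genes called with the NANCI shRNA and not with the LL34 shRNA. Mrps22 went from 9.31, 9.27 and 9.33 to 9.17, 9.08 and 9.13 with the LL34 shRNA, which was not called (limma adjusted p = 0.104), and its difference was 1.09 (limma adjusted p = 1.86e-05). Mrps18c had a difference of 0.85 (limma adjusted p = 0.00766), Mrpl21 of 0.64 (limma adjusted p = 0.00151) and Mrps9 of 0.62 (limma adjusted p = 0.000607). For Mrpl24 and Mrpl23 the LL34 change was the higher, with differences of −0.62 and −0.60 (limma adjusted p = 0.0051 for each).

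**Figure D4:**
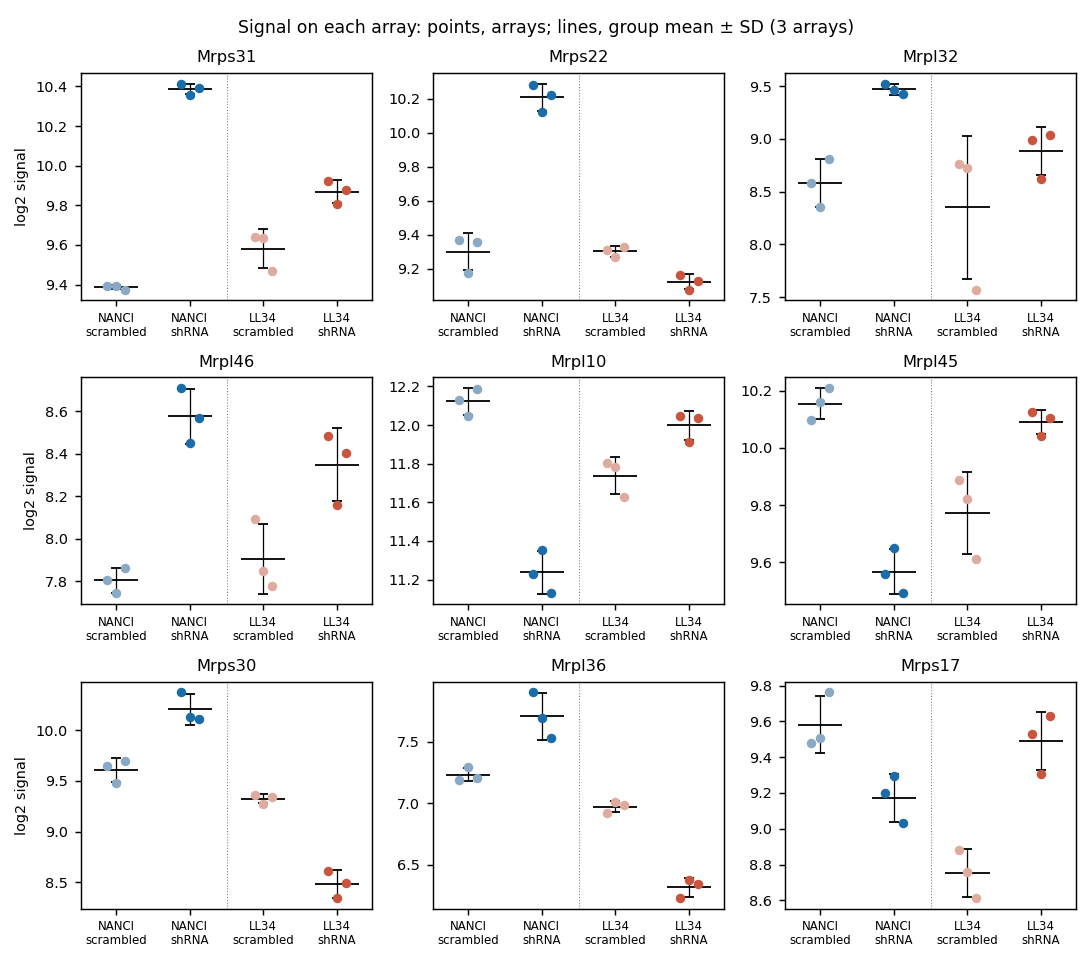
Log2 signal (vertical axis, own range for each gene) of 9 members on every array, with points for arrays and lines for the group mean ± SD (n = 3), for the NANCI scrambled, NANCI shRNA, LL34 scrambled and LL34 shRNA groups. Mrps30 and Mrpl36 rise in the NANCI set and fall in the LL34 set, Mrpl10, Mrpl45 and Mrps17 do the opposite, and 1 LL34 scrambled array of Mrpl32 lies at 7.57.

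The scrambled groups of the sets were not alike, which sets the level from which each change was measured. Between the scrambled groups, LL34 minus NANCI, 39 of 71 members (54.9%) were called lower and 6 (8.45%) higher, against 50.5% of all genes called lower and 9.9% higher. Of the 12528 brighter genes, 5359 were called lower and 1955 higher. The median over the members was −0.23, as it was over all genes (−0.23), whereas over the brighter genes it was −0.15. Between the targeting groups 35 members were lower and 11 higher, against 55.2% and 14.1% of all genes and 5874 and 2851 of the 12528 brighter genes. Set and group cannot be told apart in these contrasts. Mrps17 read 8.88, 8.76 and 8.61 in the LL34 scrambled group and 9.48, 9.50 and 9.76 in the NANCI scrambled group. With all 6 scrambled arrays as 1 control group the median over all genes moved to 0.131 for the NANCI shRNA and −0.141 for the LL34 shRNA. In that setting 3 of 43 large and 5 of 28 small subunit genes rose after the LL34 shRNA, against 3.88% of all genes. Of the 10 members called lower with the NANCI shRNA, 7 were no longer called: Mrpl11, Mrpl17, Mrpl38, Mrpl47, Mrpl55, Mrps17 and Mrps27, with Mrpl17, Mrpl55 and Mrps17 above 0. The calls thus went from 7 to 2 in the large and from 3 to 1 in the small subunit. Over all genes the falls with the NANCI shRNA went from 13.6% to 8.07%.

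Of the 9 genes with a second probe set of their own symbol, 4 had probe sets of opposite sign with 1 of them called. Mrpl10 rose by 0.26 with the LL34 shRNA on the main probe set and changed by −0.19 on the other (limma adjusted p = 0.155). With the NANCI shRNA that other probe set changed by −0.24 (limma adjusted p = 0.0573), and its difference was −0.05 (limma adjusted p = 0.827). The called fall of Mrpl10 and its called difference thus came from the main probe set. Mrpl12 changed by 0.26 and −0.03, and Mrps5 by 0.22 and −0.05, both with the LL34 shRNA. Mrpl47 changed by −0.28 with the NANCI shRNA and by 0.41 on its other probe set (limma adjusted p = 0.353), where the scrambled arrays ranged from 6.14 to 6.71. For Mrps18b both probe sets rose with the NANCI shRNA, by 0.40 and 0.57 (limma adjusted p = 0.00021 and 9.51e-05). The second probe set of Mrps18c changed by 0.24 with the NANCI shRNA and was not called (limma adjusted p = 0.11). Its difference was 0.42 (limma adjusted p = 0.0484). For Mrps17 the second probe set gave −0.19 and 0.18, the same signs as the first, but neither was called, and for Mrpl36 it gave 0.15 and −0.11 with neither called. The rise of Mrpl36 and its fall thus rest on 1 probe set.

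Members were also split by their number, since higher numbers were given mainly to proteins without a bacterial counterpart. Of 26 large subunit genes numbered up to 36, 12 rose and 3 fell after the NANCI shRNA and 13 rose and 1 fell after the LL34 shRNA. Of the 17 numbered from 37, 6 rose and 4 fell, and 4 rose and 2 fell. In the small subunit 7 of 15 genes numbered up to 21 rose and 2 fell after the NANCI shRNA, and 7 rose and 1 fell after the LL34 shRNA. Of the 13 numbered from 22, 7 rose and 1 fell, and 6 rose and 1 fell. Among the brighter genes 22% rose and 22.7% fell after the NANCI shRNA, and 16.7% rose and 16.9% fell after the LL34 shRNA. Among all genes these shares were 13.2%, 13.6%, 9.77% and 10.3%. Classes this small give coarse shares, and some lie near the brighter genes, such as 4 falls of 17 after the NANCI shRNA. The difference between these classes was not tested.

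Members called with neither shRNA were Mrpl13, Mrpl14, Mrpl19, Mrpl20, Mrpl37, Mrpl42, Mrpl48, Mrpl50, Mrpl52, Mrpl54, Mrpl57, Mrps21, Mrps25 and Mrps36. For Mrpl19 the 95% intervals ran from −0.07 to 0.20 and from −0.12 to 0.15. For Mrpl42 they were wide, −0.59 to 0.27 and 0.05 to 0.91, and Mrpl20 had 0.32 and 0.40 with limma adjusted p of 0.128 and 0.065. In the LL34 set 4 members (Mrpl1, Mrpl19, Mrpl48 and Mrps35) had exactly equal values on arrays of a group, and none of these was called there.

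Other genes of mitochondrial translation moved in both directions. Of 42 measured (of 46 listed), 14 rose and 9 fell after the NANCI shRNA with a median of 0.09, and 8 rose and 4 fell after the LL34 shRNA with a median of 0.15. Rises were 33.3% and 19% of the list, against 22% and 16.7% of the brighter genes, and falls 21.4% and 9.52%, against 22.7% and 16.9%. The share of rises with the LL34 shRNA and of falls with the NANCI shRNA thus lay near the background. Ptcd3, a small subunit protein outside the naming rule, rose by 0.82 after the NANCI shRNA (limma adjusted p = 5.34e-06), from 10.66, 10.46 and 10.53 to 11.32, 11.34 and 11.45. The other measured ribosomal proteins outside the rule, Gadd45gip1 and Dap3, rose by 0.79 and 0.54 (limma adjusted p = 0.000174 and 0.000218). Chchd1 and Aurkaip1, also listed, were not measured. After the LL34 shRNA 1 of these 3 measured genes rose and the others were not called, with a median of −0.02. Tfb1m, which methylates the small ribosomal RNA, read 10.78, 10.71 and 10.80 against 10.03, 9.96 and 10.05 in the NANCI set and 10.33, 10.29 and 10.09 against 11.01, 10.90 and 10.89 in the LL34 set. It thus fell with the NANCI shRNA (change −0.75, limma adjusted p = 2.12e-05) and rose with the LL34 shRNA (0.70, limma adjusted p = 7.33e-05), as Rcc1l did (−0.65 and 0.66, limma adjusted p = 0.000507 and 0.000744) and Gtpbp10 (−0.34 and 0.32, limma adjusted p = 0.00102 and 0.00229), both of which act in assembly of the large subunit. Lrpprc, which stabilises mitochondrial messenger RNAs, fell with the NANCI shRNA (change −0.78, limma adjusted p = 6.13e-05), and Ngrn, which binds the large ribosomal RNA, rose by 0.66 (limma adjusted p = 4.08e-05). Taco1, a translational activator of cytochrome c oxidase subunit I, rose by 0.41 with the LL34 shRNA (limma adjusted p = 0.00294), or by 0.18 (limma adjusted p = 0.0697) with all its probe sets averaged. Over 25 assembly and ribosomal RNA genes 7 rose and 7 fell with the NANCI shRNA and 4 and 4 with the LL34 shRNA. These counts lay near the shares of the brighter genes given above.

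Of 12 genes for upkeep and transcription of mitochondrial DNA, 4 rose and the other 8 were not called after the NANCI shRNA. That is 33.3%, against 13.2% of all genes and 22% of the brighter genes, and rests on few genes. Tfam, which packs the genome and starts its transcription, rose by 0.67 (limma adjusted p = 0.000136), Tfb2m, the other initiation factor, by 0.48 (limma adjusted p = 0.00326), Mterf1a by 0.91 (limma adjusted p = 0.00519) and Top1mt, a topoisomerase, by 0.41 (limma adjusted p = 0.00225). After the LL34 shRNA 2 rose and 1 fell, and the rises (16.7%) matched the share in the brighter genes (16.7%). Polg2, the accessory subunit of the DNA polymerase, rose by 0.56 (limma adjusted p = 0.00102), Top1mt by 0.26 (limma adjusted p = 0.0375), a call lost without 5 of the 6 arrays of the set in turn, scrambled replicate 1 being the exception (0.053 to 0.144), and Tfb2m changed by −0.79 (limma adjusted p = 0.000212). Polrmt, the RNA polymerase, was not called (0.20, limma adjusted p = 0.0774).

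Of 11 regulators of mitochondrial gene programmes, 3 rose and 3 fell after the NANCI shRNA, and 2 rose and 2 fell after the LL34 shRNA. Those shares, 27.3% each way and 18.2% each way, lay near the 22% and 22.7%, and 16.7% and 16.9%, of the brighter genes. The GABP beta subunits moved apart after the NANCI shRNA: Gabpb2 changed by −0.84 (limma adjusted p = 6.57e-06) and Gabpb1 by 0.41 (limma adjusted p = 0.000657), whereas Gabpa, the DNA-binding subunit, was not called (−0.17, limma adjusted p = 0.192). Esrra rose by 0.45 (limma adjusted p = 0.00264) and Pprc1 changed by −0.28 (limma adjusted p = 0.00332). Nrf1 changed by 0.20 with the NANCI shRNA (limma adjusted p = 0.0275) and by −0.23 with the LL34 shRNA (limma adjusted p = 0.0168). Myc changed by −0.21 (limma adjusted p = 0.0418) and −0.36 (limma adjusted p = 0.00258). The coactivators Ppargc1a and Ppargc1b rose by 0.71 (limma adjusted p = 0.0142) and 0.35 (limma adjusted p = 0.0212) with the LL34 shRNA. Ppargc1a read 7.74, 7.73 and 7.09 with scrambled shRNA, where replicate 3 was the low one, and 8.38, 8.36 and 7.95 with the LL34 shRNA. Several of these calls depended on single arrays. Leaving out 1 array of the set took Nrf1 to at most 0.0954 with the NANCI shRNA (without NANCI shRNA replicate 1 or 3 or scrambled replicate 2 or 3) and to at most 0.0714 with the LL34 shRNA (without LL34 shRNA replicate 1 or 2 or scrambled replicate 2). Myc lost its NANCI call without any 1 of 5 arrays, scrambled replicate 2 being the exception (0.0807 to 0.142). Ppargc1a lost its call without LL34 shRNA replicate 1 or 2 (0.0621 and 0.0561), and Ppargc1b without LL34 shRNA replicate 2 or 3 or scrambled replicate 1 or 2 (0.0599 to 0.0903).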

How the data were processed

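The arrays were hybridised with biotin-labelled RNA of 12 samples in 4 groups of 3, taken from the labels. The authors deposited log2 signals, 1 value per probe set and array. They were made with oligo, RMA and limma, per the submitters' processing notes. Neither tool versions nor a genome build were given in the sources used here. Signals appeared normalized within each set of 6 arrays, so changes were measured within a set. For arrays, their number limits the precision. Probe sets were named through the platform annotation (23521 of 41345 with 1 symbol, 1814 with several, 16010 with none), and all 71 members matched a mouse gene table. No gene coordinates were taken beyond the RefSeq promoter windows of GRCm38.p6.

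The test was limma 3.58.1 in R 4.3.3 (with the data.table package, version 1.17.8, and Python 3.11.15 with pandas 2.3.3 and matplotlib 3.10.9 for sequences and figures), fitted to all probe sets and 4 group means, with 8 residual and 2.84 prior degrees of freedom. The Benjamini-Hochberg adjustment ran over 41345 probe sets per comparison, with a threshold of 0.05. The scripts were tested on simulated data. The text names, per shRNA and subunit, the 5 highest and 5 lowest called changes, members called in opposite directions with a called difference, probe sets that disagreed, and the 4 smallest p-values of each of 3 further lists. Gabpa, Dap3, Gadd45gip1 and other members outside this rule were named after their values were seen. The members and lists were chosen with earlier results of these data known. Alternatives covered the normalization, the arrays fitted, a replicate block, array weights, the variance model, dim probe sets, averaging of probe sets, a pooled control and each array left out. The subunit of Mrps30 and Mrps18a and the removal of tied values were added after the data were seen.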

Additional observations from a re-analysis of the deposited data

Results flagged for a closer look

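The effect of the shRNA differed between the sets, by limma's test of the difference itself (adjusted p under 0.05), in 30 of the 71 genes. This share lay near that of the genes at or above the median level. The NANCI change minus the LL34 change, on the log2 scale, was above 0 in 15 genes: Mrps30 (1.44), Mrpl36 (1.13), Mrps22 (1.09), Mrps18c (0.85), Mrpl58 (0.80), Mrpl49 (0.79), Mrps31 (0.71), Mrpl21 (0.64), Mrps9 (0.62), Mrps33 (0.54), Mrpl51 (0.53), Mrps35 (0.50), Mrpl18 (0.42), Mrps7 (0.42) and Mrpl4 (0.41). It was below 0 in the other 15: Mrpl10 (−1.15), Mrps17 (−1.15), Mrpl45 (−0.91), Mrpl55 (−0.79), Mrpl47 (−0.66), Mrpl24 (−0.62), Mrpl23 (−0.60), Mrpl11 (−0.58), Mrps18a (−0.47), Mrpl9 (−0.45), Mrps28 (−0.42), Mrps5 (−0.36), Mrps16 (−0.36), Mrpl17 (−0.29) and Mrps15 (−0.28). Of these calls, 14 of the 15 above 0 and 8 of the 15 below 0 held under every alternative run for the difference. Targeted RNA and set of arrays cannot be told apart in this contrast.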

How the results depend on the processing

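The medians of both subunits stayed above 0 under every alternative run: 0.098 to 0.247 (large) and 0.22 to 0.438 (small) after the NANCI shRNA, 0.113 to 0.285 and 0.035 to 0.22 after the LL34 shRNA. Of 32 rises and 10 falls after the NANCI shRNA, 21 and 3 were called under all alternatives (23 and 7 without the pooled control). Of 30 rises and 5 falls after the LL34 shRNA, 3 (Mrpl3, Mrpl27 and Mrps31) and 2 were (11 and 2 without the pooled control).

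With 6 scrambled arrays as 1 control, falls after the NANCI shRNA numbered 2 (large), 1 (small) and 5 (other translation genes), and LL34 rises 3, 5 and 2, with 2 falls in the other translation genes. Over all genes 8.07% fell with the NANCI shRNA, and 3.88% rose and 8.09% fell with the LL34 shRNA. With this control Mrpl17 (0.11), Mrpl55 (0.016), Mrps17 (0.0082), Pprc1 (0.00093) and Myc (0.059) reversed with the NANCI shRNA, and Mrps16 (−0.18), Mrps24 (−0.046), Mrps26 (−0.17) and Top1mt (−0.15) with the LL34 shRNA. Pooling moves the control of each set toward that of the other. Part of the level difference between the sets thus enters each change, with opposite signs for the NANCI and the LL34 shRNA. Mrpl47 reversed (0.067) with its probe sets averaged, since they differ in sign. The fit of the LL34 set alone, which has fewer arrays, gave 10 large and 8 small rises and 1 fall in the other translation genes. In that fit 6.78% of all genes rose and 8.1% fell. Quantile normalization gave 8 rises and 4 falls in the small subunit, and centring 7 rises there and 5 in the other translation genes. Over all genes LL34 rises and falls were 8.35% and 12.7% with quantile normalization and 7.26% and 11.1% with centring. Leaving out dim probe sets gave 13 rises in the other translation genes, with fewer probe sets adjusted over. With Mrps30 and Mrps18a counted as large, 1 small subunit gene fell after the LL34 shRNA. Without members with tied values no count changed.

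No sign of pairing by replicate number was seen: deviations of same-numbered arrays correlated at −0.009, 0.0123 and −0.0568 (NANCI) and 0.0451, −0.0505 and −0.1246 (LL34). Those of differently numbered arrays correlated at −0.0805 to 0.1198 and −0.1499 to 0.1339. With 3 arrays per group, deviations from the group mean cannot exclude pairing. With a replicate block, LL34 counts were 12 rises and 1 fall (large), 8 and 1 (small), and 1 fall in the other translation genes, and NANCI counts 12 and 7, and 12 and 2. Over all genes 6.96% rose and 8.12% fell with the LL34 shRNA, and 10.9% and 11.6% with the NANCI shRNA.

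Leaving out 1 array gave 12 to 16 and 11 to 14 rises (large, small) and 6 to 6 and 2 to 3 falls after the NANCI shRNA. After the LL34 shRNA it gave 9 to 17 and 7 to 12 rises and 1 to 3 and 1 to 2 falls. Over all genes rises were then 10.7% to 11.8% with the NANCI shRNA and 6.59% to 9.65% with the LL34 shRNA. Falls over all genes were 11.3% to 12.5% and 8% to 11%. The difference was called in 14 to 19 large and 11 to 14 small subunit genes. In the other translation genes the NANCI shRNA gave 14 to 15 rises and 7 to 9 falls. The LL34 shRNA gave 5 to 11 rises (5 without LL34 shRNA replicate 1 or 3 or scrambled replicate 3) and 0 to 4 falls (1, 1 and 0 without LL34 shRNA replicates 1, 2 and 3, 0 without scrambled replicate 1 or 2). The cause of these moves was not tested, and 3 arrays per group limit the precision.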
